A study of Mus musculus with 6 samples.

Results

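Genes of cholesterol synthesis, uptake and efflux were followed in mouse erythroblasts, the nucleated precursors of red cells. The cells came from bone marrow of FVB/N mice by sorting on CD71, the transferrin receptor, and 1 Affymetrix array was run per sample. There were 3 wild type arrays and 3 arrays of mice with a transgene for mutant RPS19, a small ribosomal subunit protein, carrying the change R62W. The list held 30 genes, and a gene entered when a probe set was annotated to its symbol alone. This held for 27 genes with 53 probe sets, out of 12393 genes and 22626 probe sets in all, whereas Acat2, Insig1 and Nr1h2 were not analysed here. Both groups share the strain and the sort. The sources used here do not give the promoter that drives the transgene, the number of lines or founders, the age of the mice or any pooling. They also do not say that arrays of 1 group stand for different animals. The p-values therefore refer to the spread between arrays, and that spread may be technical in part or, in wild type, in whole. Mutant replicate 3 differed from the other mutant arrays in sex-linked genes, given below, so the mutant arrays do not all share the same source.

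Cells make cholesterol from acetyl-CoA through mevalonate, the isoprenoid farnesyl pyrophosphate, squalene and lanosterol. The supply is controlled by the transcription factors SREBP-1 and SREBP-2, which the escort protein SCAP carries out of the endoplasmic reticulum when sterol is low and which INSIG proteins hold back when it is high. The receptor LXR answers to oxidised sterols and switches on genes of efflux. Erythroblasts need cholesterol for their membranes, and mature red cells, which have no nucleus, can no longer transcribe these genes.

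None of the 27 genes passed the test between mutant and wild type arrays. The count at an adjusted p under 0.05 was 0 of 27 by limma, where 0.331% of all genes were called (41 of 12393). Srebf1 came closest among the genes higher in the mutant (1.77-fold, adjusted p = 0.062 by limma) and Fdps among those lower (1.58-fold lower, adjusted p = 0.083). At an adjusted p under 0.10 these 2 genes were called, against 3.09% of all genes. At an unadjusted p under 0.05 there were 6 of 27 genes (22.2%), against 17.4% of all genes. Of these, 3 were higher and 3 lower, where 9.11% of all genes were higher and 8.3% lower by that rule. The groups did not overlap for 9 genes (33.3%), against 24.7% of all genes. All mutant values were above in 5 of them (12.0% of all genes) and below in 4 (12.7% of all genes). Counted as probe sets and adjusted over all of them, 2 of 53 were called (3.77%), against 2.33% of all probe sets. Both were higher in the mutant, as were 0.941% of all probe sets at that threshold. No share is read as particular to these genes. The counts given below by role and by list at an unadjusted p under 0.05 stand against the same 17.4% of all genes. The median log2 difference was 0.0897 over the 27 genes and -0.0044 over all genes, with 18 mutant means higher and 9 lower.

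The mutant arrays stood apart from each other more than the wild type arrays did. For a gene on the list the median SD was 0.0764 over wild type and 0.242 over mutant arrays. In 25 of 27 genes (92.6%) the mutant SD exceeded the wild type SD, against 77.7% of all genes. Array medians ran from 5.34 to 5.40, and the RMA processing described below makes them nearly equal. Spiked polyadenylated controls, bacterial RNAs added before labelling, read 8.59 to 8.63 on the wild type arrays and 11.46 to 13.43 on the mutant arrays. For actin, the 3' probe set exceeded the 5' probe set by 1.26 to 1.37 on wild type arrays and by 1.58 to 1.88 on mutant arrays, a measure of RNA integrity. The same difference for Gapdh was -0.087 to -0.049 in wild type and 0.252 to 0.311 in mutant samples, whereas for the transferrin receptor the groups overlapped (1.67 to 1.78 and 1.63 to 1.88). Mutant replicate 3 alone read high for the Y-linked gene Eif2s3y (8.34, against 2.23 to 2.45 elsewhere). The X-linked gene Xist read 5.78 on this array and 11.38 to 12.07 elsewhere. The part of these in the results was not tested.

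Markers of the sorted cells and of other marrow cells were also read. Of 14 erythroblast markers 12 were measured, with a mean level of 9.41 to 9.48 on wild type arrays and of 8.87, 9.55 and 9.61 on mutant replicates 1, 2 and 3. Among them Klf1 read 10.74 to 11.74 over the 6 arrays, whereas the probe set of Hba-a1, an adult alpha globin, read 2.87 to 3.27, below the lower quartile of the arrays (3.49 to 3.62). Probe sets annotated to several symbols were not read for the markers, so this value alone does not give the level of alpha globin. Neutrophil markers were bright on every array. The 13 neutrophil genes had a mean of 9.77 to 9.89 in wild type and of 10.56, 9.31 and 8.82 on the 3 mutant arrays. Mpo, the myeloperoxidase of neutrophil granules and the brightest of them, read 12.38 to 13.54 over all arrays. The 9 measured B cell markers had a mean of 6.03 to 6.07 in wild type and of 6.04, 7.88 and 6.84 in mutant samples. None of these 3 lists held a called gene by limma. An unadjusted p under 0.05 was reached by 1, 0 and 4 of their genes, and by 17.4% of all genes. The 7 measured megakaryocyte markers had a mean of 5.38 to 5.44 in wild type and of 6.14, 5.70 and 5.74 on the mutant arrays, all above wild type, with 6 gene means higher and 1 lower. Among them Vwf, which encodes von Willebrand factor of megakaryocytes and endothelium, rose. It read 4.4, 4.48 and 4.36 in wild type and 5.44, 6.10 and 6.12 in mutant samples, a difference of 1.48 ± 0.19 (log2, SE, adjusted p = 0.036 by limma), and no other gene of its list had an unadjusted p under 0.05. The 7 measured T and NK cell markers had a mean of 5.13 to 5.2 in wild type and of 4.90 to 5.22 in mutant samples, with 0 called by limma (2 at an unadjusted p under 0.05). A sorted sample is a bulk measurement, in which fewer cells of a type and less RNA per cell cannot be told apart.

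**Figure D1:**
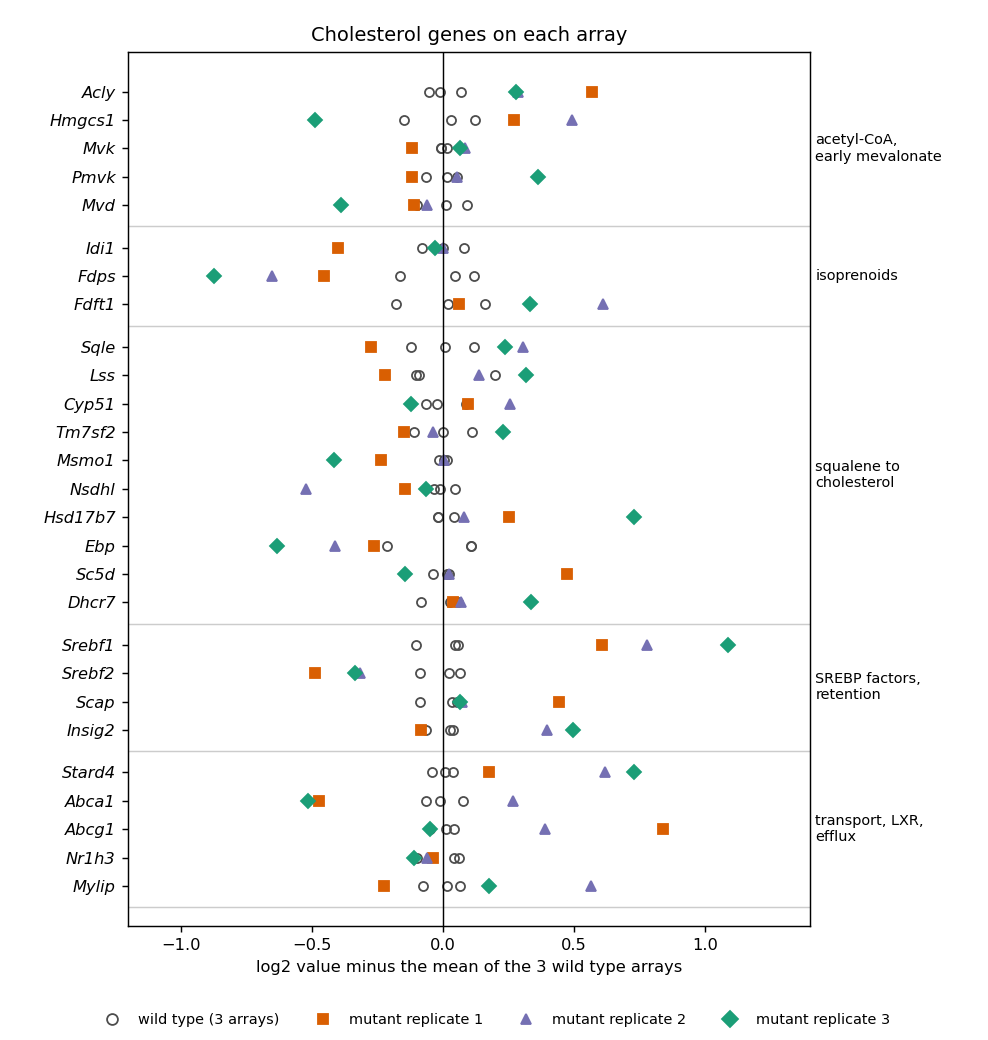
Each row is 1 of the 27 genes and each point 1 array, placed by its log2 value minus the mean of the 3 wild type arrays (open circles). The mutant arrays spread more widely than the wild type arrays for 25 of 27 genes, and Srebf1 and Fdps lie farthest from zero with all 3 mutant arrays on the same side.

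The first steps turn citrate into acetyl-CoA and join acetyl-CoA units into mevalonate. Of 5 measured genes, 0 passed the test (1 at an unadjusted p under 0.05, by limma), and the median difference was 0.0897 on the log2 scale. Acly, the ATP citrate lyase that makes cytosolic acetyl-CoA, read 8.61, 8.65 and 8.73 on the wild type arrays and 9.23, 8.95 and 8.94 on the mutant arrays (log2). Every mutant array was above every wild type array, and the difference was 0.37 ± 0.11 (log2, SE, adjusted p = 0.16 by limma). Its 4 other probe sets did not all run this way. One of them, at a wild type mean of 7.30, differed by -0.51 ± 0.18 with no overlap, another of about the same brightness as the first (8.58) differed by -0.08 ± 0.13, and the other two lay near the floor of the array (2.22 and 2.08). The mean of all 5 gave Acly 0.07 (adjusted p = 0.77 by limma).

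Hmgcs1 encodes the HMG-CoA synthase of the cytosol and is a well known target of SREBP-2. It read 7.85, 7.76 and 7.58 on the wild type arrays and 8.0, 8.22 and 7.24 on the mutant arrays. Mutant replicates 1 and 2 lay above all wild type arrays and mutant replicate 3 below them, and the difference was 0.09 ± 0.24 (log2, SE), with a 95% confidence interval of -0.48 to 0.66. The 2 next brightest probe sets gave 0.09 ± 0.17 and 0.07 ± 0.16. The dimmest, with a wild type mean of 5.97, gave -0.56 ± 0.15 and was lower on every mutant array (adjusted p = 0.11 over probe sets by limma).

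The sequence before the Hmgcs1 start is shown because, of the 22 measured genes with a sequence to search, only Hmgcs1 held a sterol regulatory element core. The letters searched were TCACNCCAC for that core and CCAAT, the box bound by NF-Y, a common partner of SREBP, both on either strand within the 250 bases before each RefSeq start (GRCm38.p6). The 200 bases before the Hmgcs1 start lie at chr13:119690151-119690350 on the plus strand. Capitals mark the core, which begins 137 bases before the start, and CCAAT boxes on the minus strand, read here as ATTGG, at 176 and 45 bases.
Hmgcs1: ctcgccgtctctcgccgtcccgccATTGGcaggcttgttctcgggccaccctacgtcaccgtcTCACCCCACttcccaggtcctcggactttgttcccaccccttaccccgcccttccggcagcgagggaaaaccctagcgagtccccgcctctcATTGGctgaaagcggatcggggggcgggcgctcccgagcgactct

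A start was found in the RefSeq table for 22 of the 27 genes, and Fdps, Fdft1, Sqle, Stard4 and Abcg1 had no entry. Among 9887 tested genes with an entry, 1.29% held the sterol core and 39.9% a CCAAT box. Of 15 measured synthesis enzymes 1 held the core and 14 (93.3%) held a CCAAT box before at least 1 start, Acly being the exception. Mvk had 5 boxes, the most on the list, and Hmgcs1, Msmo1, Hsd17b7, Mylip and 1 start of Insig2 had 3 each. Counted by start site, 14 of 18 windows of these enzymes held a box, against 34.7% of the windows of tested genes. These matches describe the letters of the windows and are no measure of binding.

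On the brightest probe sets of the other early genes the groups overlapped. Mvk, the kinase of mevalonate, differed by 0.01 ± 0.10 (95% confidence interval -0.21 to 0.24) and Pmvk, the next kinase, by 0.10 ± 0.14. For Mvk the sign turned when quantile normalisation was repeated without controls (-0.0147). Mvd, which makes isopentenyl pyrophosphate, differed by -0.18 ± 0.12, with its lowest value on mutant replicate 3 (4.96, against 5.25 to 5.44 in wild type). Its other probe set, of nearly the same brightness, differed by 0.21 ± 0.10 with all mutant values higher.

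The next 3 enzymes build farnesyl pyrophosphate and squalene, and 0 of 3 passed the test (1 at an unadjusted p under 0.05, by limma). Fdps, the farnesyl pyrophosphate synthase that feeds sterols, prenylated proteins and the side chain of haem a, read 8.62, 8.55 and 8.34 on the wild type arrays. On the mutant arrays it read 8.05, 7.85 and 7.63, so that every mutant value lay below every wild type value. The difference was -0.66 ± 0.14 (log2, SE), with a 95% confidence interval of -0.98 to -0.35 and an adjusted p of 0.083 by limma. Without mutant replicate 1 it was -0.76 (adjusted p = 0.015 by limma) and called, and without a wild type array the adjusted p was 0.29 to 0.37. A second Fdps probe set, at a wild type mean of 2.76 and so below the lower quartile of the arrays, differed by 0.37 ± 0.21, and the mean of both was -0.15 (adjusted p = 0.61 by limma).

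Fdps and the neutrophil markers stood in the same order on the mutant arrays, highest on replicate 1 and lowest on replicate 3. Macrophage and monocyte markers (5.65, 5.61 and 5.16) and T and NK cell markers (5.22, 5.19 and 4.90) shared that order. Erythroblast markers stood in the reverse order (8.87, 9.55 and 9.61). On mutant replicate 1 neutrophil (10.56), megakaryocyte (6.14) and T and NK cell markers were above their wild type ranges. Fdps, erythroblast markers and macrophage and monocyte markers were below theirs on that array, and B cell markers were at the wild type level (6.04). The part of the cell mixture in the values of Fdps was not tested. Idi1, the isomerase before Fdps, differed by -0.14 ± 0.13 and was low on mutant replicate 1 alone (7.64, against 7.96 to 8.12 in wild type). Fdft1, the squalene synthase after it, differed by 0.33 ± 0.16 (adjusted p = 0.34 by limma), with 8.12, 8.67 and 8.39 on the mutant arrays and 7.88 to 8.22 in wild type. Thus the 3 neighbouring steps did not share a direction. The 3 dimmer probe sets of Fdft1 were near equal between the groups (-0.02, -0.008 and 0.09).

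**Figure D2:**
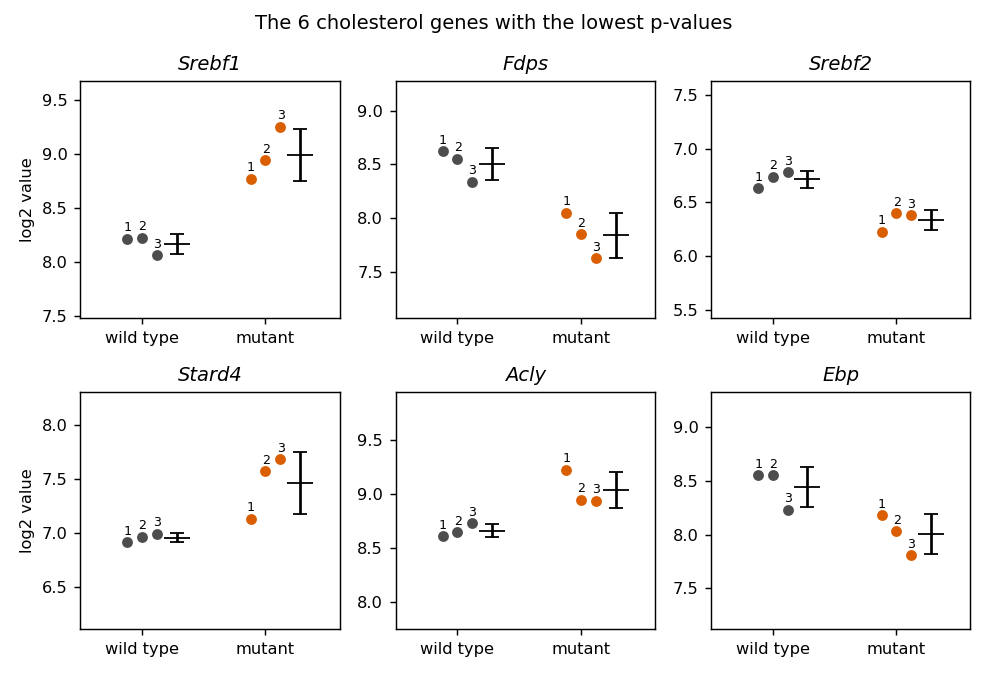
Log2 values of the 6 genes with the lowest p-values, each by its brightest probe set, 1 point per array with its replicate number, beside the mean and SD of 3 arrays per group; every panel spans the same log2 range. On these probe sets Srebf1, Stard4 and Acly are higher and Fdps, Srebf2 and Ebp lower on all mutant arrays, while other probe sets of Acly, Fdps and Srebf2 have the opposite sign, and none of the 6 has an adjusted p under 0.05 over all genes.

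From squalene on, 10 enzymes were measured and 0 passed the test (1 at an unadjusted p under 0.05, by limma), with 7 mutant means higher, 3 lower and a median difference of 0.0791. Ebp, the sterol isomerase that also binds the drug emopamil, had the lowest p of them. It read 8.55, 8.55 and 8.23 in wild type and 8.18, 8.03 and 7.81 in mutant samples. The groups did not overlap, though wild type replicate 3 (8.23) and mutant replicate 1 (8.18) were close. The difference was -0.44 ± 0.14 (log2, SE, adjusted p = 0.18 by limma). Nsdhl, a dehydrogenase of the demethylation complex, also had all mutant values below wild type, by -0.24 ± 0.13 (adjusted p = 0.41 by limma). It read 7.57 on mutant replicate 2, while mutant replicate 3 (8.03) was next to the lowest wild type array (8.06). Both genes lie on the X chromosome, and mutant replicate 3 was the array with the Y-linked signal and the low Xist value. Without that array Ebp differed by -0.34 (adjusted p = 0.22 by limma) and Nsdhl by -0.33. The part of this difference between arrays in the values of Ebp and Nsdhl was not tested.

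The window before the Ebp start is shown as that of the enzyme with the lowest p among those acting after squalene. It lies at chrX:8193513-8193712 on the minus strand of GRCm38.p6, and capitals mark CCAAT boxes, read as ATTGG, at 170 and 55 bases before the start.
Ebp: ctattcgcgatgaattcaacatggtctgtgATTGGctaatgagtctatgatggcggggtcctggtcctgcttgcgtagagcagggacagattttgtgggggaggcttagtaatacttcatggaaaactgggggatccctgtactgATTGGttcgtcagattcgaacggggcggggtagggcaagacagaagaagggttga

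Hsd17b7, the keto reductase of the same demethylation complex as Nsdhl, read 5.55, 5.61 and 5.55 in wild type and 5.82, 5.65 and 6.30 in mutant samples. All mutant values were higher and the difference was 0.35 ± 0.17 (adjusted p = 0.32 by limma). Its second probe set, nearly as bright (wild type mean 5.43), gave -0.35 ± 0.11 with all mutant values lower, so the mean of both was 0.0003. Msmo1, the methyl oxidase of that complex, differed by -0.22 ± 0.12 and read 5.55, 5.79 and 5.37 on the mutant arrays against 5.77 to 5.80 in wild type. The 3 members of the complex therefore gave no common direction.

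Sqle, the squalene epoxidase that is a flux-controlling step, differed by 0.09 ± 0.17, with 7.16 on mutant replicate 1 and 7.74 and 7.67 on the others, around 7.31 to 7.55 in wild type. Lss, which closes the sterol rings to lanosterol, differed by 0.08 ± 0.16. Its dimmest probe set, at 3.16 in wild type, was higher on every mutant array by 0.52 ± 0.14 (adjusted p = 0.11 over probe sets by limma). Cyp51, the lanosterol demethylase, differed by 0.08 ± 0.12 and its 2 dimmer probe sets by 0.10 ± 0.19 and 0.21 ± 0.19. Tm7sf2, a sterol reductase of the membrane, differed by 0.02 ± 0.13, which became -0.0358 with the arrays quantile normalised again, controls left out. Sc5d, the sterol desaturase, differed by 0.12 ± 0.16, with 6.81 on mutant replicate 1 against 6.30 to 6.36 in wild type. Its dimmer probe set, at 3.83 in wild type, differed by -0.33 ± 0.10 with all mutant values lower (adjusted p = 0.14 over probe sets by limma). Dhcr7, the reductase that makes cholesterol itself, differed by 0.15 ± 0.11, with 6.90 on mutant replicate 3 against 6.48 to 6.62 in wild type. On the brightest probe sets of Sqle, Lss, Cyp51, Tm7sf2, Sc5d and Dhcr7 the groups overlapped.

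By array, the 18 measured synthesis enzymes split. On mutant replicate 1, 7 were above their wild type mean and 11 below, on replicate 2, 13 above and 5 below, and on replicate 3, 9 and 9. Their median deviation from the wild type mean was -0.1196, 0.0625 and 0.0223 on these arrays, and -0.0326, -0.0141 and 0.0187 over all genes. Erythroblast markers were lowest on mutant replicate 1 too (8.87), and their part in this was not tested.

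Of the control proteins 4 were measured, and 0 passed the gene test (2 at an unadjusted p under 0.05, by limma). Srebf1, which encodes SREBP-1, the regulator of fatty acid and sterol genes and itself a target of LXR, was measured by 1 probe set. It read 8.21, 8.22 and 8.06 on the wild type arrays and 8.77, 8.94 and 9.25 on the mutant arrays. The lowest mutant array (8.77) was above the highest wild type array (8.22). The group means were 8.16 ± 0.092 and 8.98 ± 0.24 (SD, n = 3 each), a difference of 0.82 ± 0.14 (log2, SE), with a 95% confidence interval of 0.50 to 1.14. The adjusted p was 0.062 over genes and 0.034 over all probe sets (limma). It was 0.0083 without mutant replicate 1, 0.048 without mutant replicate 3 and 0.14 without mutant replicate 2. Leaving out a wild type array gave 0.28 to 0.31, although the difference stayed at 0.77 to 0.85.

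Srebf1 stood above the wild type range on all 3 mutant arrays. Neutrophil markers were above theirs on replicate 1 (10.56) and below it on replicates 2 and 3 (9.31 and 8.82). The order of the 3 mutant arrays was the reverse of that of the neutrophil, the macrophage and monocyte, and the T and NK cell markers. Erythroblast markers (8.87, 9.55 and 9.61) stood in the same order as Srebf1. They were below their wild type range (9.41 to 9.48) on replicate 1 and above it on replicates 2 and 3. B cell markers (6.04, 7.88 and 6.84) were highest on replicate 2. The mean of the megakaryocyte markers was above the wild type range on all 3 mutant arrays. It was highest on replicate 1, where Srebf1 was lowest of the mutant arrays. Vwf, Gp1bb and Gp9 stood in the same order on them as Srebf1. By contrast, Pf4, Ppbp and Itga2b were highest on replicate 1, and Gp5 was lowest on replicate 2. The part of the cell mixture in the values of Srebf1 was not tested.

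Srebf1 has 3 starts in the RefSeq table, and 2 are shown as those of the factor with the largest difference on the list. Start 3, at chr11:60210472-60210671 on the minus strand, holds a CCAAT box (capitals, as ATTGG) 30 bases before the start. Start 2, at chr11:60220628-60220827 on the minus strand, holds neither motif in the bases searched. Start 1, farther upstream and not shown, holds a box at 166 bases. Which start the array's transcripts used is not resolved by a single probe set.
Srebf1 start 3: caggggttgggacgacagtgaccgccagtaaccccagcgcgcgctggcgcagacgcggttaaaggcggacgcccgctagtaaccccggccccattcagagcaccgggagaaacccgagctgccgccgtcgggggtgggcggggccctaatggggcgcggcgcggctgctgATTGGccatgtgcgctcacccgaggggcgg
Srebf1 start 2: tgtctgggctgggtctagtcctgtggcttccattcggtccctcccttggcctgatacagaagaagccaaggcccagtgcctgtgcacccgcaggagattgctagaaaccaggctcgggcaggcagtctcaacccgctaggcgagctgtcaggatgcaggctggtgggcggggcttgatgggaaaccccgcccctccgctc

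Srebf2, for SREBP-2, the main regulator of cholesterol synthesis, ran the other way on its brighter probe set. It read 6.63, 6.74 and 6.78 in wild type and 6.23, 6.40 and 6.38 in mutant samples. The groups did not overlap, and the difference was -0.38 ± 0.10 (log2, SE, adjusted p = 0.12 by limma). The dimmer probe set gave 0.40 ± 0.19, with mutant replicate 1 (5.51) inside the wild type range of 5.37 to 5.57 and replicates 2 and 3 (6.31 and 5.85) above it. The mean of both was 0.0105 (adjusted p = 0.98 by limma), so no direction is given for Srebf2 as a gene.

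Scap, the escort of both factors, read 8.17 on mutant replicate 1 and 7.80 and 7.79 on the others, against 7.64 to 7.78 in wild type. These values differed by 0.20 ± 0.13 (adjusted p = 0.49 by limma). Insig2, which retains SCAP in the endoplasmic reticulum, had 3 probe sets. The brightest differed by 0.27 ± 0.16 (adjusted p = 0.44 by limma), at 6.05 on mutant replicate 1, below all wild type arrays, and 6.53 and 6.63 on the others, above them. The dimmest rose in the fit over all probe sets. It read 4.98, 4.92 and 5.01 in wild type and 5.54, 5.43 and 5.39 in mutant samples, a difference of 0.49 ± 0.091 (adjusted p = 0.044 over probe sets by limma). The remaining one, as bright as the first, differed by -0.18 ± 0.11, so that the 3 probe sets of Insig2 disagreed in sign.

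**Figure D3:**
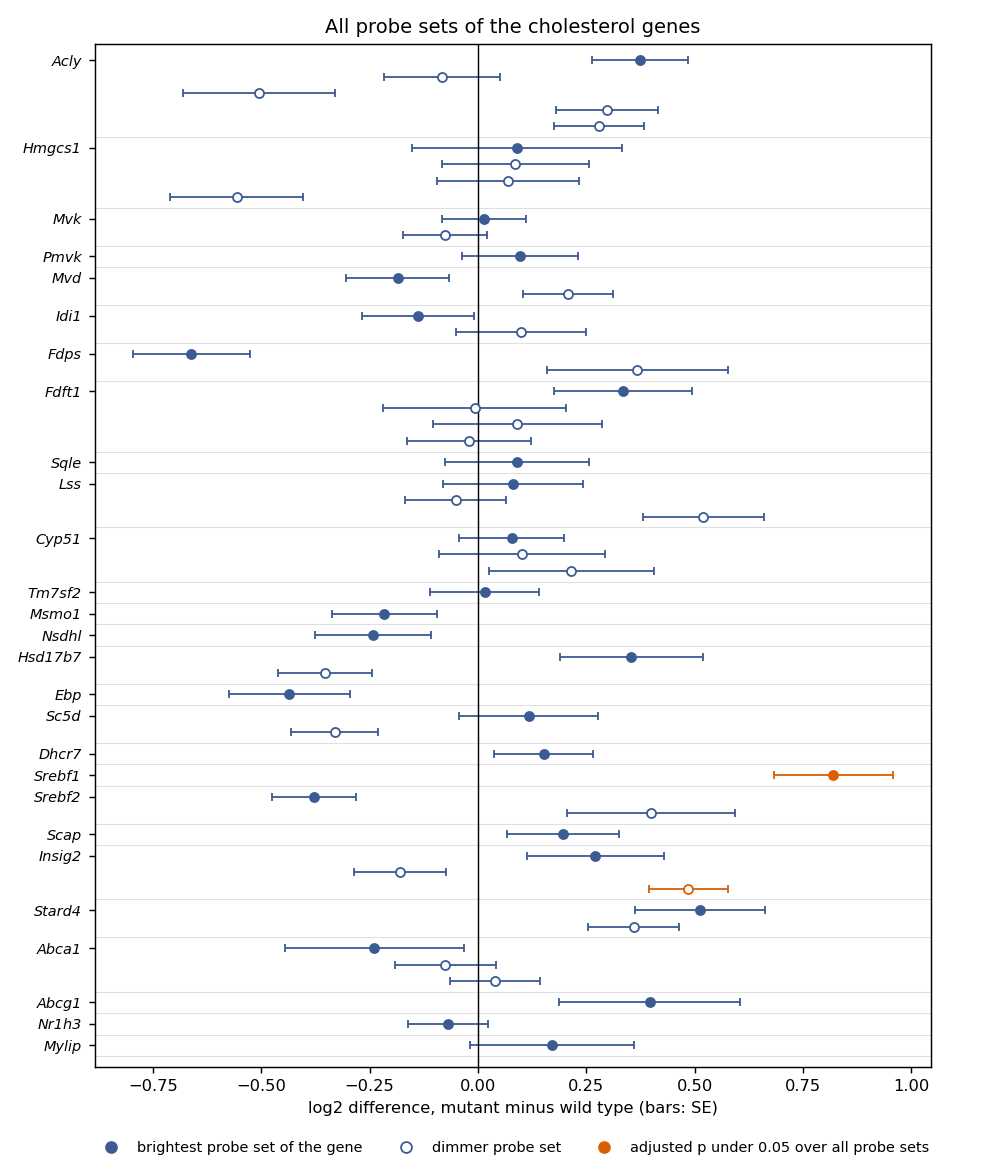
Log2 difference between mutant and wild type means with its SE for all 53 probe sets, grouped by gene with the brightest first (filled). The Srebf1 probe set and the dimmest Insig2 probe set are past an adjusted p of 0.05 over all probe sets, and 13 of the 15 genes with several probe sets have probe sets on both sides of zero.

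Probe sets of 1 gene often disagreed. Of the 27 genes 15 had several probe sets, and in 13 of these the probe sets differed in sign, the exceptions being Stard4 and Cyp51. In 11 of the 13, probe sets of both signs read above the lower quartile of the arrays (3.49 to 3.62), whereas for Fdps and Abca1 the opposing one was below it.

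Stard4, a soluble carrier that moves cholesterol between membranes and is a known SREBP-2 target, had 2 probe sets that ran the same way. The one that stands for the gene read 6.91, 6.96 and 6.99 in wild type and 7.13, 7.57 and 7.68 in mutant samples. All mutant values were higher, and replicate 1 was nearest to wild type. The difference was 0.51 ± 0.15 (log2, SE, adjusted p = 0.15 by limma), and 0.68 (adjusted p = 0.0092 by limma) without mutant replicate 1. The other probe set gave 0.36 ± 0.11, again with no overlap. Of the 5 measured genes of transport, LXR and efflux, 0 passed the test (1 at an unadjusted p under 0.05, by limma), with a median difference of 0.1707.

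Abcg1, which exports cholesterol to lipoproteins and is an LXR target, read 6.31, 6.34 and 6.25 in wild type. On mutant replicates 1, 2 and 3 it read 7.14, 6.69 and 6.25. The first of these was above wild type and the last at the lower end of its range, and the difference was 0.40 ± 0.21 (adjusted p = 0.39 by limma). Abca1, the other LXR-driven exporter, did not follow it. It read 4.49, 5.23 and 4.45 on the mutant arrays and 4.90 to 5.04 in wild type, a difference of -0.24 ± 0.21. Nr1h3, which encodes LXR alpha, read 4.08 to 4.15 in mutant and 4.09 to 4.25 in wild type samples. Mylip, the ubiquitin ligase that sends lipoprotein receptors to degradation under LXR, read 7.46, 8.25 and 7.86 on the mutant arrays and 7.61 to 7.75 in wild type (0.17 ± 0.19).

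Macrophages are known for strong use of the LXR and ABC transporter genes, and their markers were read beside them. Of 19 macrophage and monocyte markers 17 were measured, and 15 had a lower mutant mean. By limma 0 were called and 3 had an unadjusted p under 0.05, against 17.4% of all genes. Their mean level was 5.75 to 5.84 in wild type and 5.65, 5.61 and 5.16 on the mutant arrays. Adgre1, which encodes the macrophage antigen F4/80, read 4.82 to 5.09 over all arrays. RMA values have no zero, so no marker reads as absent. The means of these markers, of the neutrophil markers and of the T and NK cell markers stood in the same order as Abcg1 on the mutant arrays. Erythroblast markers stood in the reverse order. The part of these cells in the values of Abca1 and Abcg1 was not tested.

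Other genes of the pathway were read from lists of branches and partners. Over all genes, 9.11% were higher and 8.3% lower at an unadjusted p under 0.05 by limma. Of 12 measured genes of mevalonate branches, which make prenyl groups, dolichol and ubiquinone, 0 passed the test (2 higher and 2 lower at an unadjusted p under 0.05, by limma), with a median of 0.0861. Ggps1, which lengthens the product of Fdps to geranylgeranyl pyrophosphate, read 6.60, 6.58 and 6.78 in wild type and 6.21, 6.34 and 5.82 in mutant samples. It was lower on every mutant array, by -0.53 ± 0.15 (adjusted p = 0.14 by limma). Nus1, of dolichol synthesis, differed by -0.24 ± 0.094 and Rabggta, which prenylates Rab proteins, by 0.24 ± 0.091.

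Of 10 further genes of sterol enzymes and sensing, 0 passed (1 higher and 2 lower at an unadjusted p under 0.05, by limma), with a median of 0.0846. Nfya and Nfyb, subunits of the factor that binds the CCAAT box, differed by -0.44 ± 0.16 and -0.27 ± 0.092 (adjusted p = 0.22 and 0.20 by limma). Nfyb read 7.93, 7.98 and 7.88 in wild type and 7.59, 7.74 and 7.63 in mutant samples, without overlap. Syvn1, a ubiquitin ligase of the endoplasmic reticulum, differed by 0.66 ± 0.22.

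Of 15 genes of sterol transport, storage and LXR partners, 0 passed (3 higher and 1 lower at an unadjusted p under 0.05, by limma), with a median of 0.0414. Rxrb, a retinoid X receptor that pairs with LXR, read 8.30, 8.28 and 8.13 in wild type and 8.60, 8.71 and 8.63 in mutant samples. All mutant values were higher, by 0.41 ± 0.095 (adjusted p = 0.10 by limma). Stard3, a late endosomal sterol carrier, differed by 0.36 ± 0.10 and Lrp8, a lipoprotein receptor, by -0.35 ± 0.12.

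SREBP-1 is best known for fatty acid synthesis, and 15 genes of it were measured. Of these 0 passed (3 higher and 1 lower at an unadjusted p under 0.05, by limma), 6 mutant means were higher and 9 lower, and the median was -0.0171. Elovl6, a fatty acid elongase, read 6.01, 5.87 and 5.70 in wild type and 6.24, 6.82 and 6.30 in mutant samples, a difference of 0.59 ± 0.17 (adjusted p = 0.15 by limma). Acss2, which makes acetyl-CoA from acetate, differed by 0.42 ± 0.13, and Acacb, the acetyl-CoA carboxylase of mitochondria, by -0.37 ± 0.12. The list as a whole had no common direction.

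**Figure D4:**
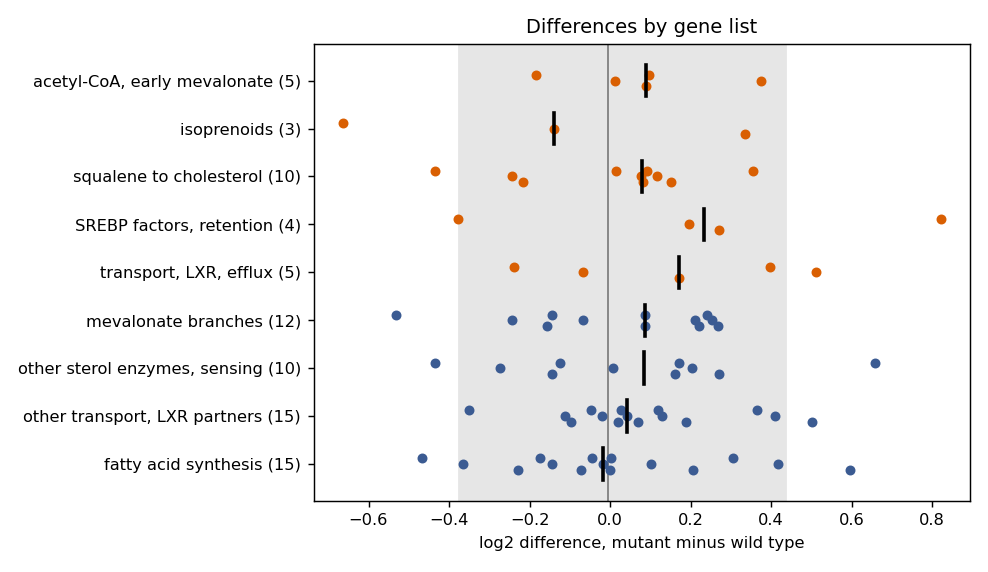
Log2 difference of each measured gene by list, the list's median as a black bar, with the number of genes in brackets; orange points are the 27 genes and blue points the other lists, and the grey band spans the 5th to 95th percentile of all genes (-0.38 to 0.44). Of the 27 genes, Srebf1 and Stard4 lie above the band and Fdps, Ebp and, at its edge, Srebf2 below it.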

How the data were processed

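The authors deposited log2 values, 1 per probe set and array, made with GCOS and with RMA in Affymetrix Expression Console, per the submitters' processing notes (versions not given in the sources used here). RMA corrects background, quantile normalises and summarises probes, so levels compare between arrays, not between genes. Control probe sets (64) stayed out of the tests. Of the 22626 others, 20380 had 1 gene symbol, and the brightest stood for each of 12393 genes. The groups were fitted in limma 3.58.1 under R 4.3.3 (two-sided eBayes, no covariates, Benjamini-Hochberg adjustment over all genes, or all probe sets where stated), after a test on simulated data. Errors are the fit's SE or the SD of 3 arrays, whose number limits the precision. Genes and lists were chosen with earlier results of these data known. Named are all measured cholesterol genes, Tfrc and, from each list of other pathway genes, called genes and up to 3 by lowest p. Single marker genes were named after their values were seen. Tfrc, the sort marker, read 12.12 to 12.15 in wild type and 11.45 to 11.99 in mutant samples. Alternatives covered normalisation, probe set choice, variance prior, array weights, a filter on dim genes, a replicate block, the threshold and each array left out. Figures used matplotlib 3.10.9 in Python 3.11.15.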

Additional observations from a re-analysis of the deposited data

Results flagged for a closer look

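Control probe sets, which entered no comparison, read higher on the mutant arrays. The spiked polyadenylated controls were 4.15 higher in the mutant mean than in the wild type mean on the log2 scale, with 8.59 to 8.63 in wild type and 11.46, 13.37 and 13.43 on the mutant arrays. The hybridization controls were 1.15 higher. With 3 arrays a group, no single array was tested as an outlier.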

How the results depend on the processing

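The alternatives were 16 settings. The number of called genes, 41 of 12393, was 383 at an adjusted p under 0.10, 1292 with array weights, 117 in the set of genes brighter than the median gene, 528 over all probe sets, 69 with an intensity trend, 62 when quantile normalisation was repeated without controls and 7 with the replicate block. Leaving out 1 array gave 0 to 1182, with 0 without each wild type array, 1182 without mutant replicate 1 and 199 without mutant replicate 3. The number of called cholesterol genes, 0 of 27, was 2 at an adjusted p under 0.10 (Srebf1 and Fdps), 4 with array weights (Srebf1, Stard4, Fdps and Ebp), 1 among the brighter genes (Srebf1), 2 as probe sets (Srebf1 and Insig2) and 0 to 4 with 1 array left out. The 4 were Srebf1, Stard4, Insig2 and Fdps, without mutant replicate 1. The median over these genes, 0.0897, ran from -0.0141 to 0.105 with 1 array left out. Of the 27 genes 16 kept their sign in every setting run, and 5 were called in at least 1. The filter for brighter genes left out Abca1, Hsd17b7, Msmo1, Mvd and Nr1h3. On the mean of all probe sets the sign turned for Hmgcs1 (-0.0778), Mvd (0.0118), Mvk (-0.0316), Sc5d (-0.1068) and Srebf2 (0.0105), in each of which a dimmer probe set had the other sign. With quantile normalisation repeated it turned for Mvk (-0.0147) and Tm7sf2 (-0.0358), and with array weights for Tm7sf2 (-0.0053), and the cause was not tested. With 1 array left out, the differences ran from -0.0141 to 0.1782 for Cyp51, from -0.11 to 0.3811 for Hmgcs1, from -0.0394 to 0.2315 for Lss, from -0.0252 to 0.0793 for Mvk, from -0.0274 to 0.3685 for Mylip, from -0.0331 to 0.2059 for Pmvk, from -0.0627 to 0.2484 for Sc5d, from -0.0167 to 0.2729 for Sqle and from -0.0921 to 0.0949 for Tm7sf2. These data do not settle whether replicate numbers pair the samples. Deviations of same-numbered arrays correlated at only 0.022 to 0.082 over genes, but 5 of 6 arrays correlated best with their own number. The replicate block called 0 of 27 cholesterol genes by limma, as without it, with adjusted p of 0.17 for Srebf1 and 0.14 for Fdps. No detection calls were used here, so signal over background is unknown for dim probe sets.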
